A study of Nothobranchius furzeri with 18 samples.

Results

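Cultured tail fibroblasts of killifish (Nothobranchius furzeri, a fish with a short life span that serves as a model of vertebrate ageing) were compared between homozygous mutants of exon 3 and homozygous mutants of exon 1 of vgll3. The comparison holds the libraries with the genotype vgll3 Exon3 (cultures 1, 3 and 4) and those with the genotype vgll3 Exon1 (cultures 3, 4 and 6), which are 12 of the 18 libraries and 6 of the 10 cultures of the study. Every culture compared therefore carried a mutated vgll3. WT libraries entered only an alternative fit of all 10 cultures, which also contrasts the 2 mutants. A difference thus says which mutant was higher, not which one departed from WT. The submitters' library names hold null for the exon 3 mutant and KD for the exon 1 mutant. The sources used here do not say what either mutation does to the protein, or give the strain, sex or age of the fish. RNA with a poly(A) tail was sequenced from cultures harvested near confluence. Each culture gave 2 technical libraries, A and B, whose counts were summed. Nothing in the labels says whether these cultures came from separate fish, so every p given here rests on a spread between samples that may be technical.

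Vgll3 is a vestigial-like cofactor. It has no DNA-binding domain of its own and acts by binding TEAD transcription factors, the same factors that carry the Hippo pathway effectors Yap and Taz to DNA. Active Hippo kinases keep Yap and Taz out of the nucleus, and their best-known targets encode matrix and cytoskeletal proteins. In Atlantic salmon and in people, variation at the gene is associated with the age at maturity.

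Exon 3 libraries held between 18480697 and 25172664 counts, and exon 1 libraries held between 15236208 and 23582245. Transcripts of the mitochondrial genome took 2.81% to 4.02% of the counts in exon 3 libraries and 1.54% to 4.14% in exon 1 libraries. Some libraries stood apart. Along the main axis of variation (principal component 1, 44.9% of the variance), the scores of exon 3 libraries 3A and 3B were 51.4 and 54.3 and that of exon 1 library 3A was 40.7, whereas the partner of the last, exon 1 library 3B, lay at -31.9. Only 13.8% of that axis lay between the mutants. Of the next axis (20.5% of the variance) 49.3% did, and the libraries at its low end were exon 1 4A, 4B and 3A, at -34.4, -33.6 and -32.7. Exon 1 libraries 6A and 6B lay at 10.2 and 9.09 on it, among the exon 3 libraries, which ran from 8.30 to 18.5. In deviation from the mean of their mutant, partner libraries correlated across genes with r of 0.646, 0.836 and 0.556 in exon 3 cultures 1, 3 and 4 and with r of -0.554, 0.586 and 0.641 in exon 1 cultures 3, 4 and 6. Libraries 3A and 3B of the exon 1 mutant thus went against their label as technical replicates. Because exon 3 culture 3 and exon 1 library 3A stood apart in this way, results that rest on them are also given without them. The scores do not settle which library of exon 1 culture 3 is the odd one. On the second axis 3A lay beside exon 1 4A and 4B, whereas 3B lay at -3.31. All results given without the libraries that stood apart keep 3B.

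**Figure D1:**
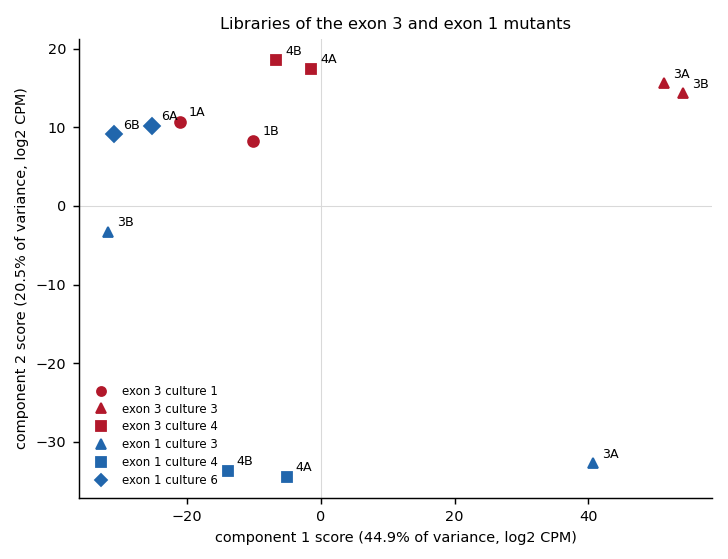
Scores of the 12 libraries on the first and second principal components of log2(CPM + 1), with red symbols for the exon 3 mutant, blue symbols for the exon 1 mutant and the library name beside each symbol. Exon 3 libraries 3A and 3B and exon 1 library 3A lie at the right, at 51.4, 54.3 and 40.7, and exon 1 library 3B lies at -31.9.

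The mutated gene itself stood lower in the exon 3 mutant. Its level was 118, 102 and 99.0 CPM (counts scaled to a common library total) in exon 3 cultures 1, 3 and 4, against 264, 203 and 256 CPM in exon 1 cultures 3, 4 and 6. The cultures of the mutants did not overlap, nor did single libraries, with all exon 3 libraries between 97.7 and 118 CPM and all exon 1 libraries between 196 and 324 CPM. The means were 106 ± 10.2 CPM in exon 3 cultures and 241 ± 33.2 CPM in exon 1 cultures (SD, n = 3 each). On the log2 scale, exon 3 over exon 1 came to -1.18 ± 0.17 (SE), short of the threshold of 0.05 in edgeR's test over all genes (adjusted p = 0.34). Without exon 3 culture 3 and exon 1 library 3A it was -1.26. Reads over a mutated exon still count towards the gene, so this level checks no genotype.

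Across the transcriptome, 1 of 15976 genes tested (0.00626%) differed between the mutants at an adjusted p under 0.05, strbp, which was lower in the exon 3 mutant. It encodes the spermatid perinuclear RNA-binding protein, known in the mouse for its role in sperm formation. Its level was 0.303, 0.673 and 0.370 CPM in exon 3 cultures 1, 3 and 4, against 12.1, 12.9 and 13.5 CPM in exon 1 cultures 3, 4 and 6. All 6 exon 3 libraries lay between 0.207 and 0.893 CPM and all 6 exon 1 libraries between 10.7 and 14.1 CPM, so that the gene was close to the limit of detection in one mutant and steadily expressed in the other. It fell by 4.83 ± 0.31 (SE) on the log2 scale (edgeR, adjusted p = 0.00915). The means were 0.449 ± 0.197 CPM in exon 3 cultures and 12.8 ± 0.679 CPM in exon 1 cultures (SD, n = 3 each), from 58 and 1573 counts. The call did not hold in every fit that left out a culture: adjusted p was 0.136, 0.161 and 0.0661 without exon 1 culture 3, 4 or 6 and 0.106 without exon 3 culture 4.

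The gene next in order of p, gpat2 (LOC107394178), lay the other way. It encodes a mitochondrial glycerol-3-phosphate acyltransferase which in the mouse is found mainly in the testis. It stood at 7.69, 3.39 and 5.95 CPM in exon 3 cultures 1, 3 and 4, against 0.200, 0.198 and 0.0538 CPM in exon 1 cultures 3, 4 and 6. Here all exon 3 libraries lay between 3.41 and 8.37 CPM and all exon 1 libraries between 0 and 0.258 CPM, with no overlap. Its log2 fold change was 5.19 ± 0.52 (SE), with an adjusted p of 0.11 in edgeR's test. It passed in 6 of 22 alternative fits, among them the one without exon 3 culture 3 (adjusted p = 0.0111). That fit leaves out the exon 3 culture nearest to the exon 1 cultures. In exon 1 cultures 3, 4 and 6 gpat2 had 8, 9 and 2 counts. It thus passed the filter on low counts only through the exon 3 mutant, so its calls in fits with that filter are no support. Both genes belong to a list of germ cell genes described further on, which was chosen with earlier results of these data known.

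**Figure D2:**
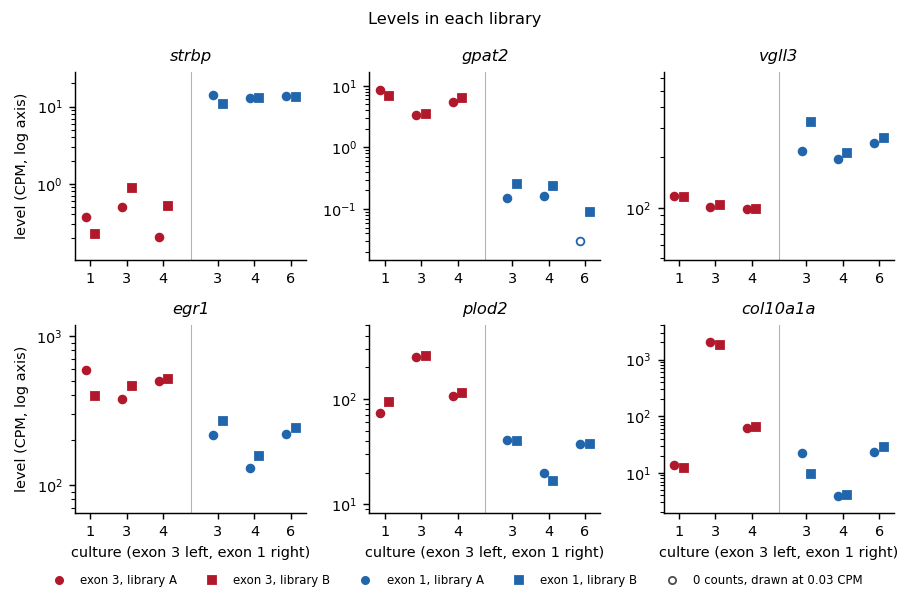
Level in CPM, on a log axis, of 6 genes in each library, with the exon 3 cultures left of the line and the exon 1 cultures right of it. The libraries of the mutants do not overlap for strbp, gpat2, vgll3, egr1 and plod2, whereas col10a1a is high in exon 3 culture 3 and lies between 3.95 and 64.0 CPM in all other cultures' libraries.

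The remaining genes differed by amounts that the spread between cultures could not separate one by one. The log2 fold changes had a median of -0.0018, and 5% of genes lay below -0.50 and 5% above 0.79. At an unadjusted p under 0.05 there were 673 genes higher in the exon 3 mutant (4.21%) and 335 lower (2.1%), and in 992 (6.21%) all 3 exon 3 cultures lay above all 3 exon 1 cultures, against 776 (4.86%) in which all lay below. DESeq2, which estimates the spread with another model, called 167 genes (1.05%), 102 of them higher (0.638%) and 65 lower (0.407%) in the exon 3 mutant. All 20 genes named below were among its calls and among the 250 of 14871 (1.68%) called with the 12 libraries as separate samples. That last fit counts technical replicates as independent. The 20 genes were also picked from the same cultures, so neither set of calls is independent support. In 160 of DESeq2's 167 the cultures of the mutants did not overlap. The calls come from the same cultures, so this is no independent support either. The median SE of a log2 fold change was 0.22 over all genes, and 0.18 over the 11630 genes with a mean of at least 5 CPM in a mutant. Of the 15976 genes tested, 516 had a log2 fold change of 1 or more and 218 of -1 or less, and among all these strbp alone passed.

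**Figure D3:**
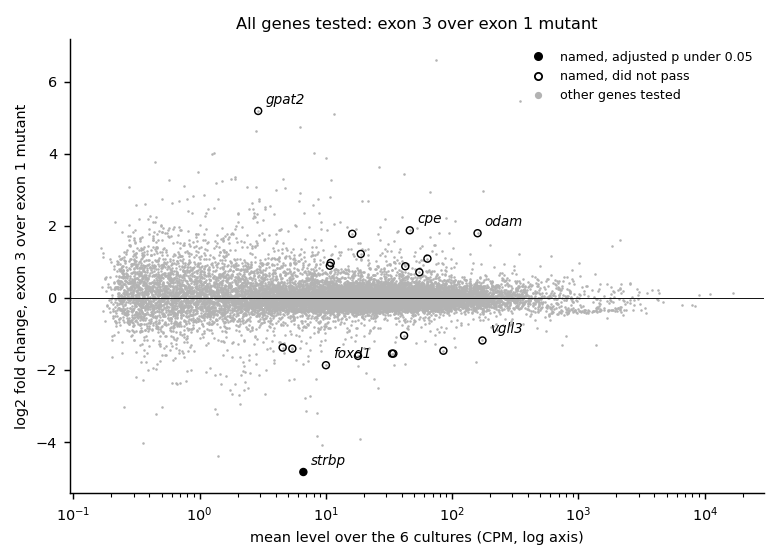
Log2 fold change of the exon 3 over the exon 1 mutant against the mean level over the 6 cultures in CPM, on a log axis, for 15976 genes. The filled circle is strbp at -4.83, which passed the test, and the open circles are the other 19 named genes, among them gpat2 at 5.19 and vgll3 at -1.18.

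Among genes with a mean of at least 5 CPM in a mutant and cultures that did not overlap, those higher in the exon 3 mutant with the smallest p after gpat2 had varied roles. None of them passed edgeR's test (adjusted p from 0.34 to 0.497), and each was called by DESeq2. The LIM-domain gene fhl3, whose protein binds actin and transcription factors, stood at 27.7, 23.5 and 28.2 CPM in exon 3 cultures 1, 3 and 4, against 10.2, 10.7 and 13.2 CPM in exon 1 cultures 3, 4 and 6 (log2 fold change 1.22 ± 0.16, SE). The Slit receptor gene robo1 stood at 78.9, 81.9 and 99.5 CPM in exon 3 cultures, against 44.6, 34.9 and 42.9 CPM in exon 1 cultures (1.09 ± 0.16). Levels of cpe, which encodes the prohormone-processing carboxypeptidase E, were 65.9, 80.0 and 72.1 CPM in exon 3 cultures, against 18.7, 12.2 and 28.5 CPM in exon 1 cultures (1.88 ± 0.29). Each of these genes was well apart in all 6 cultures. The highest level in this group was that of odam (LOC107375246), an enamel-associated secreted protein in mammals, at 213, 204 and 324 CPM in exon 3 cultures, against 59.1, 55.2 and 99.2 CPM in exon 1 cultures (1.80 ± 0.29). The delta-catenin gene ctnnd2a (LOC107383010) stood at 25.7, 28.5 and 21.0 CPM in exon 3 cultures, against 10.4, 4.48 and 7.05 CPM in exon 1 cultures (1.78 ± 0.30). Smaller log2 fold changes were found for the sodium channel gene scn8ab (LOC107384047; 0.97 ± 0.16), the pro-apoptotic BH3-only gene bcl2l11 (LOC107375876; 0.89 ± 0.15), spry4 (0.88 ± 0.14) and the exchange factor gene arhgef12b (LOC107387127; 0.71 ± 0.14). For scn8ab the exon 3 cultures were nearly equal, at 14.5, 14.6 and 14.4 CPM, against 8.64, 6.59 and 6.92 CPM in exon 1 cultures. Single libraries overlapped, with exon 3 libraries from 11.9 to 17.1 CPM and exon 1 library 3A at 12.3 CPM. With library A alone the log2 fold change of scn8ab was 0.61.

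On the lower side, after strbp and besides vgll3, the named genes also had varied roles (adjusted p from 0.34 to 0.497, each called by DESeq2). The actin-depolymerizing factor gene dstn stood at 23.3, 30.4 and 27.8 CPM in exon 3 cultures 1, 3 and 4, against 55.5, 56.6 and 56.2 CPM in exon 1 cultures 3, 4 and 6 (log2 fold change -1.05 ± 0.14, SE). The alpha-1B adrenergic receptor gene adra1b stood at 16.2, 11.5 and 23.4 CPM in exon 3 cultures, against 51.5, 46.5 and 51.5 CPM in exon 1 cultures (-1.55 ± 0.25). Of the immune-regulatory surface protein gene cd200 there were 9.68, 10.6 and 6.32 CPM in exon 3 cultures, against 27.2, 33.0 and 21.1 CPM in exon 1 cultures (-1.61 ± 0.25). For dstn the exon 1 cultures were nearly equal, but culture 3 joins library 3A at 42.8 CPM and library 3B at 71.1 CPM. For all 3 genes the highest exon 3 culture stayed well under the lowest exon 1 culture. A pair of transcription factor genes of limb and stromal development lay low as well. The forkhead gene foxd1 stood at 4.92, 2.85 and 5.16 CPM in exon 3 cultures, against 10.6, 16 and 20.6 CPM in exon 1 cultures (-1.87 ± 0.32). The zinc finger gene osr2 stood at 18.7, 15.4 and 18.4 CPM in exon 3 cultures, against 37.6, 77.4 and 38.1 CPM in exon 1 cultures (-1.55 ± 0.30), where culture 4 was far above the other 2. The glycogenin gene gyg1b (LOC107382807; -1.47 ± 0.27), the AMP deaminase gene ampd3b (LOC107372666; -1.41 ± 0.25) and the ceramide synthase gene cers6 (-1.38 ± 0.20) completed the group. Among genes with no name, LOC107377649 had a log2 fold change of 4.01 ± 0.57 and LOC107376963 of -2.66 ± 0.49, with adjusted p of 0.34 and 0.475.

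**Figure D4:**
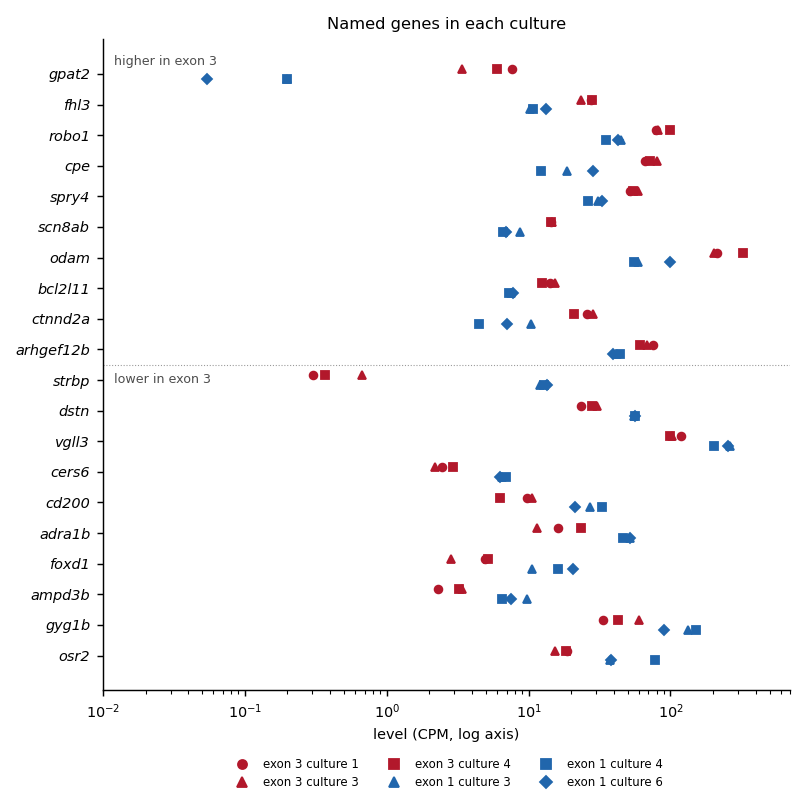
Level in CPM, on a log axis, of the 20 named genes in each culture, with exon 3 cultures (red) drawn above exon 1 cultures (blue) in each row. In every row the red and blue symbols do not overlap, which the choice of the genes required. The distance is greatest for gpat2 and strbp.

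Some genes were set apart by 1 culture. With exon 3 culture 3 left out, 7 of 16159 genes passed (0.0433%), 4 of them higher in the exon 3 mutant. Besides strbp and gpat2 these were igdcc4, samd12, pdgfa, si:ch211-180f4.1 (LOC107391482) and LOC107391499. For all of them but igdcc4, the culture left out was the exon 3 culture nearest to the exon 1 cultures. These calls therefore depend on which culture was left out and are no independent support. The immunoglobulin superfamily gene igdcc4 stood at 2.47 and 2.52 CPM in exon 3 cultures 1 and 4 and at 0 counts in exon 3 culture 3, against 16.4, 15.9 and 13.5 CPM in exon 1 cultures 3, 4 and 6. Its log2 fold change without culture 3 was -2.62 ± 0.19 (SE; edgeR, adjusted p = 0.008), and with it -3.20 ± 0.97 (adjusted p = 0.62). LOC107391499 had 476 counts in exon 3 cultures 1 and 4 together, and no count in any exon 1 culture. Against a floor of 3 counts over the exon 1 mutant it was at least 225-fold higher in those exon 3 cultures, while exon 3 libraries 3A and 3B held it at 0.0421 and 0.0526 CPM. In the fit of all 6 cultures it did not pass the filter on low counts. Without exon 3 culture 3 it passed that filter only through the mutant in which it was high, so its call there is no support. With exon 1 library 3A left out as well, 4 of 16021 genes (0.025%) passed (strbp, gpat2, igdcc4 and LOC107391499). In the opposite direction, exon 3 libraries 3A and 3B held tmem119, which encodes a membrane protein of bone-forming cells, at 61.7 and 63.8 CPM. The other exon 3 libraries held it at 0.123 to 5.23 CPM and the exon 1 libraries at 0.332 to 0.962 CPM. Of the genes tested, 556 stood at least 2-fold above both other cultures of the mutant in exon 3 culture 3 and 333 at least 2-fold below. In the other 5 cultures such genes numbered 37 to 93 above and 7 to 223 below. No gene was at 1 CPM or more in every library of one mutant and at 0.15 CPM or less in every library of the other. Within the exon 3 mutant 12 genes were at 1 CPM or more in some libraries and at 0.15 CPM or less in the rest, and partner libraries were alike in all 12. Within the exon 1 mutant there were 4 such genes, and partner libraries were alike in 1.

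The 35 gene lists held 1125 genes that were tested, and strbp was the sole member past the test over all genes. The lists are therefore described by counts and medians beside those of all genes. They were chosen with earlier results of these data known. Of all genes tested, 4.21% were higher and 2.1% lower at an unadjusted p under 0.05 in edgeR's test. Cultures did not overlap for 6.21% higher and 4.86% lower. These shares stand beside every list count from the fit of all 6 cultures. For each culture the median log2 level of a list was taken relative to each gene's mean in the exon 1 cultures. In 5 lists this median was higher in every exon 3 culture than in every exon 1 culture, in 2 lists lower, and in 28 the cultures overlapped. The 5 were the Vgll, Tead and Hippo list, the targets of Yap and Tead, FGF and ERK signalling, TGF-beta and BMP signalling, and matrix crosslinking and proteolysis. The 2 were DNA replication and germ cell genes. The separation was narrow in places. The nearest exon 3 and exon 1 cultures lay at 0.13 and 0.11 in the Vgll, Tead and Hippo list and at 0.14 and 0.09 for Yap and Tead targets. They lay at 0.14 and 0.10 for FGF and ERK, 0.12 and 0.06 for TGF-beta and BMP, and 0.17 and 0.12 for the matrix list. For DNA replication they were -0.10 and -0.09, and for germ cell genes -0.20 and -0.09. In each of these lists the nearest exon 1 culture was culture 3.

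**Figure D5:**
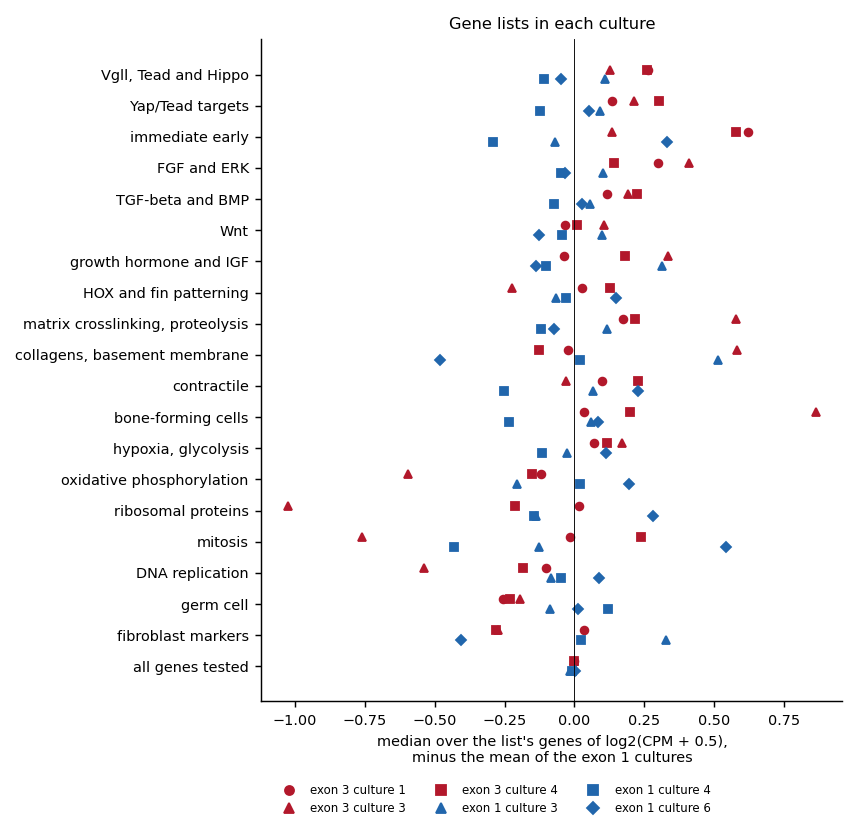
Median over the genes of a list of log2(CPM + 0.5), minus the mean of the exon 1 cultures for each gene, in each culture, with exon 3 cultures (red) drawn above exon 1 cultures (blue). Exon 3 culture 3 (red triangles) lies farthest out for bone-forming cells (0.86), ribosomal proteins (-1.03), mitosis (-0.76) and oxidative phosphorylation (-0.60), and over all genes tested the 6 medians lie between -0.015 and 0.002.

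In the Vgll, Tead and Hippo list, 23 of 31 members had log2 fold changes above 0, with a median of 0.21. At an unadjusted p under 0.05, 5 were higher and 1, vgll3, was lower. The cultures did not overlap for 9 higher and 1 lower member, beside 6.21% and 4.86% of all genes. Next to vgll3, the smallest p belonged to the kinase genes taok2a (LOC107394983) and taok3, whose products act upstream of the Hippo kinases, and ajuba (LOC107377277), whose product inhibits the Lats kinases. Levels of ajuba were 67.4, 68.8 and 64.4 CPM in exon 3 cultures, against 58.0, 43.4 and 53 CPM in exon 1 cultures (0.38 ± 0.15, adjusted p = 0.738). The log2 fold changes of taok2a and taok3 were 0.45 ± 0.16 and 0.55 ± 0.22 (adjusted p = 0.698 and 0.75). Exon 1 library 3A held taok2a at 26.6 CPM, above every exon 3 culture, and library 3B at 14.85 CPM. Without the libraries that stood apart the log2 fold change of taok2a was 0.57. With library A alone the list's median was 0.05. Without the libraries that stood apart it was 0.30, and 12 members were higher at an unadjusted p under 0.05. In that fit 7.44% of all genes were higher and 4.25% lower at the same limit.

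Among 33 targets of Yap and Tead, 25 lay above 0, with a median of 0.21, or 0.33 without the libraries that stood apart and 0.13 with library A alone. At an unadjusted p under 0.05, 6 were higher and 1 was lower, beside 4.21% and 2.1% of all genes. The lower one was nuak2, a kinase gene of the AMPK family, at 16.4, 8.26 and 14 CPM in exon 3 cultures, against 26.2, 38.2 and 16.3 CPM in exon 1 cultures. Exon 3 culture 1 and exon 1 culture 6 were level, and the log2 fold change was -1.06 ± 0.35 (adjusted p = 0.682). The thrombospondin gene thbs1b (LOC107377820) had 52.9, 42.2 and 134 CPM in exon 3 cultures, against 39.2, 37.7 and 33.2 CPM in exon 1 cultures (1.06 ± 0.41, adjusted p = 0.733). Exon 3 culture 4 was far above all others, and the other exon 3 cultures lay just over the exon 1 cultures. Exon 1 culture 3 joins library 3A at 59.8 CPM, above exon 3 cultures 1 and 3, and library 3B at 20.0 CPM. Without the libraries that stood apart the log2 fold change of thbs1b was 1.62. The RNA-binding protein gene rbms3 (0.62 ± 0.23) and the growth factor gene fgf1 (1.72 ± 0.66), the last below 1 CPM in every culture, had adjusted p of 0.716 and 0.732.

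Genes of FGF and ERK signalling lay mostly higher in the exon 3 mutant. Of 33 members 27 lay above 0, with a median of 0.31. At an unadjusted p under 0.05, 8 were higher and none was lower, beside 4.21% and 2.1% of all genes. DESeq2 called 4 higher, beside 0.638% of all genes. The 4 with the smallest p include spry4 and spry2, which encode Sprouty proteins, feedback inhibitors of the pathway. Levels of spry4 were 52.1, 58.8 and 54.6 CPM in exon 3 cultures, against 30.7, 26.2 and 33.2 CPM in exon 1 cultures (0.88 ± 0.14, adjusted p = 0.34). Levels of spry2 were 2.19, 2.95 and 1.85 CPM in exon 3 cultures, against 0.874, 0.791 and 0.619 CPM in exon 1 cultures (1.61 ± 0.32, adjusted p = 0.497). Both separate the mutants in every culture. The FGF receptor-like gene fgfrl1 had 5.48, 5.96 and 16 CPM in exon 3 cultures, against 2.62, 2.13 and 1.94 CPM in exon 1 cultures (2.03 ± 0.44, adjusted p = 0.497). The platelet-derived growth factor gene pdgfa had 47.7, 22.2 and 69.0 CPM in exon 3 cultures, against 14.8, 15.1 and 19.0 CPM in exon 1 cultures (1.51 ± 0.37, adjusted p = 0.523). Without exon 3 culture 3, where it was lowest among the exon 3 cultures, pdgfa passed with a log2 fold change of 1.83 ± 0.20 (adjusted p = 0.0453). The list's median was 0.28 without the libraries that stood apart, 0.17 without exon 3 culture 3 alone and 0.15 with library A alone.

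Immediate early genes, which cells switch on within minutes of growth factor or mechanical stimuli, lay above 0 in 28 of 31 cases, with a median of 0.53. At an unadjusted p under 0.05, 10 were higher and none lower, beside 4.21% and 2.1% of all genes. The cultures did not overlap for 7 higher genes, beside 6.21% of all genes. The zinc finger gene egr1 stood at 503, 408 and 511 CPM in exon 3 cultures, against 237, 142 and 233 CPM in exon 1 cultures (1.22 ± 0.24, adjusted p = 0.497). Its relative egr3 stood at 25.6, 6.54 and 24.2 CPM in exon 3 cultures, against 1.70, 0.440 and 6.00 CPM in exon 1 cultures (2.80 ± 0.88, adjusted p = 0.647). The exon 3 cultures lay above the exon 1 cultures in both, but for egr3 exon 3 culture 3 came close to exon 1 culture 6. For csrnp1b (LOC107382811) and ier2 the log2 fold changes were 0.63 ± 0.14 and 1.06 ± 0.31 (adjusted p = 0.497 and 0.584). DESeq2 called egr1 and csrnp1b. The median of the list was 0.55 without the libraries that stood apart, but by culture the mutants overlapped: the culture medians were 0.62, 0.13 and 0.58 in the exon 3 mutant and -0.07, -0.29 and 0.33 in the exon 1 mutant.

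Ligands and antagonists of the TGF-beta and BMP families lay higher more often than lower. Of 48 members 38 lay above 0 (median 0.22, or 0.21 without the libraries that stood apart, 0.13 without exon 3 culture 3, 0.14 without exon 1 culture 4 and 0.09 with library A alone). At an unadjusted p under 0.05, 6 were higher and none was lower, beside 4.21% and 2.1% of all genes. The activin subunit gene inhbaa (LOC107373976) stood at 60.0, 97.8 and 57.6 CPM in exon 3 cultures, against 40.0, 16.6 and 31.9 CPM in exon 1 cultures (1.28 ± 0.35, adjusted p = 0.557). The ligand gene bmp7 stood at 17.0, 25.6 and 28.5 CPM in exon 3 cultures, against 8.99, 8.11 and 16.7 CPM in exon 1 cultures (1.07 ± 0.32, adjusted p = 0.616). Neither gene overlapped between the mutants, but for bmp7 exon 3 culture 1 and exon 1 culture 6 were nearly level. The ligand gene gdf6 (1.32 ± 0.45) and chrd, which encodes the BMP antagonist chordin (0.57 ± 0.20), both had an adjusted p of 0.685.

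Wnt genes were divided. The median of 40 members was 0.06, or -0.05 without exon 3 culture 3, and 2 were higher and 3 lower at an unadjusted p under 0.05. The ligand gene wnt7b stood at 0.152, 0.255 and 0.370 CPM in exon 3 cultures, against 1.05, 1.89 and 0.942 CPM in exon 1 cultures (-2.32 ± 0.49, adjusted p = 0.497). The transcription factor gene tcf7 stood at 3.36, 4.41 and 3.95 CPM in exon 3 cultures, against 6.67, 13 and 6.92 CPM in exon 1 cultures (-1.18 ± 0.30, adjusted p = 0.523). Both lay low in all exon 3 cultures and were called by DESeq2. Exon 1 library 3B, at 4.07 CPM for tcf7, nevertheless lay within the range of the exon 3 cultures. The ligand gene wnt9a (0.74 ± 0.26) and rnf43, whose product removes Wnt receptors from the surface (0.98 ± 0.35), lay the other way (adjusted p = 0.685 and 0.706). For rnf43, exon 1 library 3A, at 3.745 CPM, lay within the range of the exon 3 cultures. In the growth hormone and IGF list, which matches the growth named in the study's title, 24 of 30 members lay above 0 with a median of 0.15, which was -0.11 with library A alone, and 1 was higher at an unadjusted p under 0.05. This was stc1 (LOC107393764), a gene of the hormone stanniocalcin, at 1.15 ± 0.38 (adjusted p = 0.682). Next came foxo1 at 0.31 ± 0.16 (adjusted p = 0.857).

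Positional and patterning genes showed single differences in both directions. Of 46 HOX and fin-patterning genes 23 lay above and 23 below 0, and 5 were higher and 4 lower at an unadjusted p under 0.05. DESeq2 called 3 higher and 1 lower, the lower being foxd1, beside 0.638% and 0.407% of all genes. The homeobox gene meis3 (LOC107395934) stood at 5.35, 4.06 and 5.31 CPM in exon 3 cultures, against 2.07, 2.40 and 1.86 CPM in exon 1 cultures (1.22 ± 0.23, adjusted p = 0.497). The forkhead gene foxf1 stood at 2.88, 2.30 and 2.07 CPM in exon 3 cultures, against 0.15, 0.154 and 0.780 CPM in exon 1 cultures (2.76 ± 0.64, adjusted p = 0.497). For these genes no exon 3 culture reached down to an exon 1 culture. The homeobox gene en1b (LOC107381049) had a log2 fold change of 1.52 ± 0.39 (adjusted p = 0.523).

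Genes for enzymes that crosslink or cleave the matrix lay above 0 in 34 of 43 cases, with a median of 0.40. Of these members 10 were higher and none lower at an unadjusted p under 0.05, beside 4.21% and 2.1% of all genes. The lysyl hydroxylase gene plod2, whose product prepares collagen for crosslinking, stood at 83.7, 251 and 111 CPM in exon 3 cultures, against 39.3, 18.3 and 37.6 CPM in exon 1 cultures (2.23 ± 0.47, adjusted p = 0.497). The lysyl oxidase gene loxa (LOC107372900), whose product forms the crosslinks, stood at 148, 302 and 129 CPM in exon 3 cultures, against 90.6, 85.9 and 70.0 CPM in exon 1 cultures (1.23 ± 0.33, adjusted p = 0.538). Both lay higher in every exon 3 culture, and exon 3 culture 3 was the highest. Without the libraries that stood apart their log2 fold changes were 1.62 and 0.75, and the list's median was 0.26, or 0.18 without exon 3 culture 3 alone. The procollagen proteinase gene bmp1 stood at 237, 328 and 300 CPM in exon 3 cultures, against 227, 170 and 158 CPM in exon 1 cultures (0.64 ± 0.21, adjusted p = 0.673). For bmp1, exon 1 library 3A, at 292 CPM, lay within the range of the exon 3 cultures. The metalloproteinase gene adam19 lay below 1 CPM in every culture (2.19 ± 0.66, adjusted p = 0.62).

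Collagens and basement membrane genes were divided as well. Their median was 0.20, but -0.16 without exon 3 culture 3, -0.08 without exon 1 culture 6 and -0.13 with library A alone, and 2 of 43 members were lower at an unadjusted p under 0.05 and none higher. The elastin gene elna (LOC107380370) had the smallest p, with 4.2, 0.719 and 2.02 CPM in exon 3 cultures, against 49.5, 48.2 and 7.13 CPM in exon 1 cultures (-3.91 ± 0.85, adjusted p = 0.497). The small proteoglycan gene lum stood at 731, 327 and 503 CPM in exon 3 cultures, against 1273, 1415 and 579 CPM in exon 1 cultures (-1.07 ± 0.41, adjusted p = 0.735). In both genes exon 1 culture 6 was the lowest of its mutant, and for lum it lay below exon 3 culture 1. Contractile genes were mixed: 20 of 34 lay above 0 (median 0.15, or 0.03 without the libraries that stood apart and 0.05 without exon 1 culture 4), and 4 were higher and 2 lower at an unadjusted p under 0.05. They include fhl3 and dstn, given above, the caldesmon gene cald1 (1.86 ± 0.71, adjusted p = 0.732) and the integrin gene itga11 (-1.60 ± 0.65, adjusted p = 0.752).

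For bone-forming cell genes, 25 of 27 lay above 0, with a median of 0.46, and this rested on exon 3 culture 3. The collagen X gene col10a1a (LOC107392152), a marker of hypertrophic cartilage that fish osteoblasts also express, stood at 13.1, 1929 and 64.0 CPM in exon 3 cultures 1, 3 and 4, against 15.6, 4.02 and 26.2 CPM in exon 1 cultures 3, 4 and 6. The osteoblast transcription factor gene sp7 stood at 0.520, 51.1 and 4.94 CPM in exon 3 cultures, against 0.999, 0.835 and 2.05 CPM in exon 1 cultures. Exon 3 culture 3 was far above every other culture in both, whereas exon 3 culture 1 lay among or below the exon 1 cultures. Their log2 fold changes of 5.46 ± 1.81 and 3.87 ± 1.40 became 1.54 and 1.12 without the libraries that stood apart. The bone gene ifitm5 (LOC107374072; 4.02 ± 1.51, or 1.24 without them) had the same pattern. The matrix mineralization gene phospho1 was the exception, with 32.2, 61.0 and 34.1 CPM in exon 3 cultures, against 6.49, 3.38 and 22.5 CPM in exon 1 cultures (1.98 ± 0.65, or 1.57 without them). Adjusted p for the 4 genes was from 0.682 to 0.719. The list's median was 0.76 without exon 3 culture 1 and 0.74 without exon 3 culture 4. Without the libraries that stood apart it was 0.14, and 1 member was higher and 1 lower at an unadjusted p under 0.05. In that fit 7.44% of all genes were higher and 4.25% lower at this limit. The summed level of the list's members was 4585, 13750 and 5572 CPM in exon 3 cultures and 4072, 3783 and 5331 CPM in exon 1 cultures. In bulk RNA, more cells of a type and more RNA per cell of that type cannot be told apart. The 15 cartilage genes tested had a median of 0.25 (0.02 without the libraries that stood apart), with 0 higher and 1 lower at an unadjusted p under 0.05.

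Genes of hypoxia and glycolysis had 7 higher and 1 lower of 42 at an unadjusted p under 0.05, beside 4.21% and 2.1% of all genes. Their median was 0.15 (0.05 without the libraries that stood apart). The growth factor gene vegfa was even within each mutant, at 29.5, 29.3 and 28.5 CPM in exon 3 cultures, against 20.4, 21.0 and 20.9 CPM in exon 1 cultures (0.49 ± 0.12, adjusted p = 0.497). The glucose transporter gene slc2a1b (LOC107385012) stood at 19.3, 22.8 and 23.2 CPM in exon 3 cultures, against 13.8, 12.4 and 15.4 CPM in exon 1 cultures (0.65 ± 0.15, adjusted p = 0.497). DESeq2 called both. The glycolytic genes pfkpa (LOC107382658; 0.48 ± 0.15) and aldoca (LOC107379976; -0.58 ± 0.21) lay in opposite directions (adjusted p = 0.657 and 0.706).

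In 4 lists on energy supply, protein synthesis and proliferation the median log2 fold change was below 0, and in each the lowest culture was exon 3 culture 3. Of 66 nuclear genes of oxidative phosphorylation 64 lay below 0, with a median of -0.28. Their culture medians were -0.12, -0.60 and -0.15 in exon 3 cultures and -0.21, 0.02 and 0.20 in exon 1 cultures, which overlap between the mutants, and 1 gene was higher and 1 lower at an unadjusted p under 0.05. Without the libraries that stood apart the median was -0.29. In that fit, chosen after seeing the data, 26 members were lower at that limit, beside 4.25% of all genes. With library A alone the median was -0.0036, and without exon 3 culture 3 it was -0.16. The subunit gene cox6b1 (LOC107388090) went against the rest, at 15, 16.9 and 19.5 CPM in exon 3 cultures, against 5.92, 6.04 and 11.9 CPM in exon 1 cultures (1.11 ± 0.29, adjusted p = 0.527), and the complex I gene ndufs8 had -0.35 ± 0.14 (adjusted p = 0.752). For the 13 genes of the mitochondrial genome the median was 0.15, but -0.12 without exon 1 culture 6 and 0.36 without exon 1 culture 4. By culture, the ribosomal protein medians were 0.02, -1.03 and -0.21 in exon 3 cultures and -0.14, -0.15 and 0.28 in exon 1 cultures, which overlap. All 78 log2 fold changes were below 0, with a median of -0.35, or -0.12 without exon 3 culture 3 and 0.06 with library A alone, and none reached an unadjusted p under 0.05. The ribosomal protein gene rpl22 (LOC107384901) had -0.36 ± 0.22 (adjusted p = 0.868). Mitosis genes had a median of -0.18 over 63 members, or 0.06 without exon 3 culture 3 and 0.14 without exon 1 culture 6, and the cultures overlapped, with none at an unadjusted p under 0.05. The condensin gene smc4 (-0.22 ± 0.18) and cdc20b (0.75 ± 0.50) had an adjusted p of 0.868. For DNA replication 46 of 53 members lay below 0 (median -0.25, or -0.22 without the libraries that stood apart and -0.16 without exon 3 culture 3), and 0 were higher and 1 lower at an unadjusted p under 0.05. That one was pola2, of the primase complex, at 42.2, 32.1 and 40.2 CPM in exon 3 cultures, against 46.3, 47.9 and 55.5 CPM in exon 1 cultures (-0.39 ± 0.15, adjusted p = 0.75). For pola2, exon 1 library 3A, at 40.8 CPM, lay within the range of the exon 3 cultures. The member next in order of p was rpa3 (-0.52 ± 0.23, adjusted p = 0.814).

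The germ cell list holds the 2 genes that separated the mutants most, strbp and gpat2, in opposite directions. Because the list was chosen with earlier results of these data known, their place in it is no independent result. Of its 40 members in the file 14 were tested, 3 were higher and 3 lower at an unadjusted p under 0.05, and the median was -0.35, or -0.21 without the libraries that stood apart and -0.12 with library A alone. The recombinase gene dmc1 stood at 8.12, 5.77 and 7.40 CPM in exon 3 cultures, against 11.2, 11.7 and 13.3 CPM in exon 1 cultures (-0.77 ± 0.18, adjusted p = 0.497). The Tudor domain gene tdrd7b (LOC107376940) stood at 13.9, 21.3 and 16.1 CPM in exon 3 cultures, against 12, 8.35 and 10.9 CPM in exon 1 cultures (0.72 ± 0.21, adjusted p = 0.616). By culture neither overlapped between the mutants. Exon 1 library 3A, at 7.03 CPM for dmc1 and 14.9 CPM for tdrd7b, lay within the range of the exon 3 cultures.

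Other lists had few single differences and, apart from the unfolded protein response, medians near 0. The sign of the median depended on the setting in most. Inflammatory genes had a median of -0.07 over 27 members, 2 higher and 1 lower at an unadjusted p under 0.05. They include the cytokine gene il34 (1.80 ± 0.53, or 1.00 without the libraries that stood apart), ptx3 (-1.40 ± 0.48) and the gelatinase gene mmp9 (1.97 ± 0.81), with adjusted p of 0.612, 0.685 and 0.764. Genes of cholesterol and lipid metabolism had a median of -0.02 over 52 members, with 2 higher and 2 lower at that limit. The fatty acid-binding protein gene fabp4a (LOC107394711) stood at 3.86, 2.44 and 2.39 CPM in exon 3 cultures, against 11.9, 14 and 5.11 CPM in exon 1 cultures (-1.83 ± 0.40, adjusted p = 0.497), without overlap, and the ATP citrate lyase gene acly had -0.42 ± 0.17 (adjusted p = 0.75). Lysosome and autophagy genes had a median of -0.02 over 70 members, 0 higher and 3 lower, led by the protease gene ctsh (-1.45 ± 0.48) and hexb (-0.35 ± 0.14), with adjusted p of 0.685 and 0.75. The unfolded protein response list had a median of 0.15 over 39 genes, of which 32 lay above 0, and the sign held in every alternative. Without the libraries that stood apart its median was 0.08. It had 2 higher and 0 lower members at an unadjusted p under 0.05. Medians were -0.06 over 49 cilium genes, -0.01 over 29 genes of p53 and senescence and -0.02 over 18 interferon genes. At the same limit these had 1 higher and 1 lower, 1 and 1, and 0 and 1 members.

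Markers of the labelled cell type were abundant in both mutants. The collagen gene col1a1a stood at 2002, 3897 and 1441 CPM in exon 3 cultures and at 2548, 1659 and 1421 CPM in exon 1 cultures. The 20 fibroblast markers in the file summed to 9989 to 19450 CPM in exon 3 cultures and 9862 to 17460 CPM in exon 1 cultures, with overlap. Over 17 markers tested the median log2 fold change was -0.18, or -0.04 without the libraries that stood apart, and 0 were higher and 2 lower at an unadjusted p under 0.05, lum and twist1b (LOC107378688; -0.48 ± 0.18, adjusted p = 0.71). Of the defining genes of other cell types some were at or near 0 and others were not. No culture exceeded 0.07 CPM for the leukocyte gene ptprc, 0.081 CPM for the endothelial gene pecam1a, 0.065 CPM for the muscle gene myod1, 0.186 CPM for the cartilage collagen gene col2a1a or 0.123 CPM for the basal keratin gene krt5. The endothelial cadherin gene cdh5 stood at 17.1, 20.2 and 11.5 CPM in exon 3 cultures and at 25.3, 17.3 and 6.35 CPM in exon 1 cultures, which overlap. The basal epithelial gene tp63 stood between 2.42 and 3.97 CPM in exon 3 cultures and between 1.75 and 3.82 CPM in exon 1 cultures. The pigment cell gene dct, the epithelial gene epcam and the osteoblast gene sp7 were not near 0 either, and their levels are given with their lists. The keratinocyte and epithelial list as a whole was abundant in every culture, led by krt8, dsp and jupa.

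Some markers of other cells lay apart between the mutants, none past the test over all genes. In the keratinocyte and epithelial list, summing to 7767 to 12560 CPM in exon 3 cultures and 8756 to 9454 CPM in exon 1 cultures, 0 of 18 were higher and 3 lower at an unadjusted p under 0.05. Its most abundant members, krt8, dsp and jupa, were not among these 3. The median of that list was 0.03, but -0.12 without the libraries that stood apart and -0.35 without exon 3 culture 3. The plakin gene ppl stood at 4.55, 3.73 and 2.10 CPM in exon 3 cultures, against 8.71, 10.9 and 7.67 CPM in exon 1 cultures (-1.39 ± 0.30, adjusted p = 0.497). The adhesion gene epcam stood at 1.80, 1.69 and 1.73 CPM in exon 3 cultures, against 3.72, 3.74 and 2.31 CPM in exon 1 cultures (-0.90 ± 0.27, adjusted p = 0.62). Both lay lower in every exon 3 culture, as did the integrin gene itga6a (LOC107390018; -1.25 ± 0.43, adjusted p = 0.685). Pigment cell genes, summing to 200 to 427 CPM in exon 3 cultures and 237 to 301 CPM in exon 1 cultures, had 3 higher and 2 lower of 14 (median 0.01). The melanin synthesis gene dct stood at 6.04, 111 and 29.2 CPM in exon 3 cultures, against 5.12, 2.62 and 4.2 CPM in exon 1 cultures (3.62 ± 0.94, adjusted p = 0.526, or 2.18 without the libraries that stood apart). The iridophore gene pnp4a (LOC107384945) stood at 0.325, 0.742 and 0.346 CPM in exon 3 cultures, against 3.07, 3.27 and 1.13 CPM in exon 1 cultures (-2.40 ± 0.53, adjusted p = 0.497), and the receptor kinase gene ltk (LOC107392283) had 1.26 ± 0.32 (adjusted p = 0.523). The melanin synthesis gene dct and the iridophore gene pnp4a therefore lay in opposite directions.

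The neural and glial list had the highest median, 0.68 over 15 members, but -0.10 without the libraries that stood apart. Its members ncam1a (LOC107387208; 1.94 ± 0.80) and elavl3 (2.68 ± 1.14) were highest in exon 3 culture 3, at 170 and 2.76 CPM, against 16.9 and 0.108 CPM in exon 3 culture 1, and egr2 (1.77 ± 0.63) and syp (-1.22 ± 0.43) had low levels; adjusted p ran from 0.69 to 0.784. Tendon and perivascular genes had a median of 0.39 over 22 members (-0.18 without the libraries that stood apart), with egr1 higher and the thrombospondin gene thbs2 (-1.77 ± 0.66, adjusted p = 0.715) lower at an unadjusted p under 0.05. Endothelial genes had a median of -0.01 over 11 members, but 0.45 without exon 1 culture 3 and 0.44 without exon 1 culture 6. Of the 11, 5 lay above 0 and 6 below, and the cultures did not overlap for 2 higher and 2 lower. At an unadjusted p under 0.05, 2 were higher and none lower: pecam1b (LOC107390216; 2.10 ± 0.53) and fli1 (0.64 ± 0.22), at adjusted p of 0.523 and 0.685. The cultures overlapped for fli1, and pecam1b rested on 112 counts over all 6 cultures. The summed endothelial level was 69.2 to 79.6 CPM in exon 3 cultures and 58.2 to 81.0 CPM in exon 1 cultures. Muscle and leukocyte genes had medians of -0.05 over 12 and 0.10 over 8 members, with 0 and 1 higher and none lower. What these marker levels add to the differences in other genes was not tested.

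The neighbourhood of vgll3 did not differ at this precision. Of the 10 genes on each side of it in the RefSeq order, 11 were in the file and 5 were tested. Their log2 fold changes lay between -0.21 (ube2f) and 0.23 (adarb1b), and none reached an unadjusted p under 0.05. On the chromosome that carries vgll3, 41 of 579 genes tested (7.08%) reached that limit, against 737 of 12214 (6.03%) on all chromosomes. DESeq2's calls had 6 of 124 on it (4.84%), and the chromosome holds 4.74% of the genes tested that have a place in RefSeq. Neither strbp nor gpat2 lies on it.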

How the data were processed

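Whole-number counts, deposited by the authors with no scaling, covered 25099 genes in 18 libraries, and the 12 libraries of the mutants were used. The WT libraries entered only the alternative fit of all 10 cultures. Tools listed in the submitters' processing notes, without what each did, are STAR 2.7.6a, Trim Galore 0.6.4, FastQC 0.11.8, cutadapt 3.4 and edgeR 3.32.1. Which genome build, annotation, strand setting and rule for reads that match several genes applied is not given in the sources used here, so counts of near-identical or overlapping genes are uncertain. Of 14280 LOC numbers 5241 were named from RefSeq's table of assembly NfurGRZ-RIMD1, whose coordinates are not printed.

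Technical libraries were summed per culture (3 against 3), genes were filtered with filterByExpr, and edgeR 4.0.16 (TMM scaling, robust quasi-likelihood F test, Benjamini-Hochberg over 15976 genes, threshold 0.05; R 4.3.3) tested exon 3 over exon 1. SE is the size of the log2 fold change over the root of F. CPM are on TMM-adjusted totals. The biological coefficient of variation was 0.269, so the spread between cultures, not depth, limits precision for all but low genes. Simulated data with known changes were used to test the fit. DESeq2 1.42.0 and limma 3.58.1 gave alternatives. Named genes have a gene name, at least 5 CPM on average in a mutant and cultures that do not overlap, up to 15 past the test per direction or, with fewer than 10, the next by p up to 10; vgll3 and, for lists, up to 4 members with the smallest p are named too, of which 1 is not reported here. Other genes given in the account of single cultures were chosen after their values were seen. Lists and comparison were chosen with earlier results of these data known.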

Additional observations from a re-analysis of the deposited data

Results flagged for a closer look

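For each of the 20 named genes and for the share of mitochondrial transcripts, the 6 libraries of a mutant were examined for a library far from the other 5. Of 42 groups 2 held one, and for 6 independent values chance alone gives about 1 in 20. Partner libraries of a culture are not independent, so this rate need not apply here. For scn8ab, exon 1 library 3A lay at 12.3 CPM, with the other exon 1 libraries between 5.36 and 7.76 CPM. For strbp, exon 1 library 3B lay at 10.7 CPM, with the other exon 1 libraries between 12.9 and 14.1 CPM. Both are libraries of exon 1 culture 3, whose partners differed in many genes.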

How the results depend on the processing

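The count of genes past the test, 1 as reported, stayed at 1 with other scaling factors, with a minimum mean of 1 CPM, without robust dispersions, with limma voom, with library A alone and with exon 1 culture 3 taken from library A or B or left out with exon 3 culture 3. It was 2 with no filter and with all 10 cultures in the fit (strbp and gpat2), 0 with library B alone (smallest adjusted p 0.0967, 3320 at an unadjusted p under 0.05), 4 without exon 3 culture 3 and exon 1 library 3A, which was chosen after seeing the data, 167 by DESeq2 and 250 with the 12 libraries as separate samples, a fit that counts technical replicates as independent. These last share 149 genes, 89.2% of 167 and 59.6% of 250. With exon 1 culture 3 taken from library A, 675 genes were at an unadjusted p under 0.05. Taken from library B the number was 2373, against 1008 with both libraries summed. Leaving out a culture gave 0 to 7 genes, and 0 without exon 1 culture 3, exon 1 culture 4 or exon 3 culture 4 (1210, 535 and 779 at that limit). In those fits strbp ranged from -5.25 to -4.61; without exon 1 culture 6 igsf8 was called in its place, and without exon 3 culture 1 LOC107375227 was called beside it. The fit with a replicate block on culture number called 0 genes (1296 at an unadjusted p under 0.05, with strbp at -4.60 and adjusted p = 0.0851). In it exon 3 culture 1 and exon 1 culture 6 have no same-numbered partner, so only cultures 3 and 4 enter its contrast. Same-numbered cultures correlated in their deviations with r of 0.344 (number 3) and -0.197 (number 4), and no label says that they are paired.

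No log2 fold change of the 20 named genes turned in 440 alternative values. Of the list members, foxo1 turned with library A alone (-0.028). Of 770 alternative list medians 52 moved by more than the spread between cultures. The median took the other sign in 76 of them, spread over 20 of the 35 lists: 13 values for endothelial genes, 9 for keratinocyte, 8 for p53, 5 each for collagen and cholesterol, 4 each for inflammatory, muscle and tendon, 3 each for Wnt, HOX, interferon and neural genes, and 1 or 2 in the other 8 lists. For mitochondrial genome genes it was -0.15 with the replicate block. Limits: 3 cultures a mutant, partner libraries of exon 1 culture 3 that disagree, and genes under 1 CPM that rest on few counts.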
